A study of Mus musculus with 45 samples.

Results

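The genes described here are the writers and erasers of histone H3 lysine 4 methylation (H3K4me), followed through the oocyte-to-embryo transition with and without H3.3K36M. They are 10 of the 26214 genes in the deposited table of TPM (read density along a gene, expressed as a share of the whole library, so that levels of different genes can be set side by side), chosen by symbol: the methyltransferases Kmt2a, Kmt2b, Kmt2c, Kmt2d, Setd1a and Setd1b, their cofactor Cxxc1, and the demethylases Kdm1a, Kdm1b and Kdm5b. All 10 were found, and none was listed at 0 in any library.

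The COMPASS-family methyltransferases share a set of core subunits and differ in what they place and where: SETD1A and SETD1B trimethylate H3K4 at active promoters, KMT2A and KMT2B act at selected promoters and CpG-rich regions, and KMT2C and KMT2D monomethylate H3K4 at enhancers. The flavin-dependent enzymes KDM1A (LSD1) and KDM1B (LSD2) remove mono- and dimethyl groups, whereas KDM5 enzymes such as KDM5B remove trimethyl groups. In the mouse, growing oocytes gain broad H3K4me3 domains for which KMT2B is the main enzyme, KDM1B acts in oocytes on the imprinted loci that become methylated, and the broad domains are removed by KDM5 enzymes around zygotic genome activation in the two-cell embryo.

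RNA was sequenced from fully grown oocytes (FGOs) of females 3 to 4 weeks old and from individual embryos at the late two-cell stage, 31 to 32 h post-fertilization. Control females were H3f3b K36M-flox/+, and K36M females were H3f3b K36M-flox/+; Gdf9-Cre, both on the background labelled hybrid C57BL/6 / 129. In the latter, Cre driven by the oocyte-active Gdf9 promoter switches on HA-tagged H3.3K36M, a histone H3.3 with methionine in place of lysine 36 that inhibits H3K36 methyltransferases, from the H3f3b locus. Each FGO library pooled 5 oocytes, and there were 3 control and 3 K36M libraries. Each embryo library held 1 embryo, made in vitro from oocytes of superovulated control or K36M females and labelled as a cross of the same hybrid background with JF-1, and there were 8 of each genotype. The genotype of the mother defines the embryo groups; whether a single embryo from a K36M female carried the mutant allele is not given in the labels. Control embryo 4, which the study set aside for a technical problem, was left out, so 21 libraries were compared. The labels do not say which libraries came from separate females, so the p-values measure the spread between these libraries.

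Genes with a TPM above 0 numbered 16707 to 18559 in the FGO libraries, 12115 to 17329 in the 7 control embryos and 10894 to 14879 in the 8 K36M oocyte-derived embryos. The study lists total reads per library, with fewer for embryos than for FGOs, but TPM does not keep the number of reads behind a gene, and the number of libraries limits the precision. All 8 oocyte markers reached a mean of 1 TPM in each group, and together they summed to 15447 to 17982 TPM in FGOs and to 1093 to 4451 TPM in embryos. The 8 markers of zygotic activation summed to 34.5 to 73.9 TPM in FGOs and 270.4 to 2440.0 TPM in embryos. The 8 granulosa markers summed to 116 to 192 TPM in FGOs and 70.9 to 423 TPM in embryos, with none at 0 in a whole group, although 3 of the 8 were called lower in control embryos (median log2 difference -1.16) and 1 of 7 tested in K36M oocyte-derived ones (-1.25), and their part in the stage differences was not tested. The 6 stromal markers summed to 2.99 to 10.3 TPM in FGOs and 3.57 to 56.7 TPM in embryos. The 6 blood markers summed to at most 0.380 TPM in FGOs and 59.5 TPM in embryos. H3f3b, the locus of the mutant allele, had a mean TPM of 293 ± 24.6 (SD, n = 3) in control and 398 ± 20.8 (SD, n = 3) in K36M FGOs without overlap, although its difference of 0.44 on the log2 scale did not pass the threshold (limma, adjusted p = 0.281). TPM does not distinguish the alleles of H3f3b, so this checks the labels only in part.

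Differences are given as the difference of group means of log2(TPM + 1), a scale on which folds of weakly expressed genes appear too small. They were tested with limma across all genes whose mean reached 1 TPM, and a gene was called when its Benjamini-Hochberg adjusted p was under 0.05. In these bulk libraries, fewer transcribing cells and less RNA per cell cannot be told apart. FGO and embryo libraries also differed in pooling, in amplification (10 and 10 against 10 and 13 cycles), in sequencing depth, and in superovulation, fertilization and the paternal strain, which cannot be told apart from stage.

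The 3 members with the largest differences between control FGOs and control embryos were Kdm5b, Kdm1b and Kmt2a, and the 250 bases before their transcription start sites are shown beside their CG content and GC boxes. The third place was narrow: Cxxc1 differed by -2.19 against 2.21 for Kmt2a, and by more than Kmt2a under quantile normalization (-2.26 against 2.17) and median-of-ratios scaling (-2.40 against 2.03). The sequences come from RefSeq (GRCm38.p6, the assembly of mm10), run 5′ to 3′ on the strand of the gene, and carry in capitals the GC box GGGCGG or its reverse complement CCGCCC and the CCAAT box or its reverse complement ATTGG. The Kdm5b window is chr1:134559928-134560177 (plus strand), the Kmt2a window chr9:44881290-44881539 (minus strand) and the Kdm1b window chr13:47043249-47043498 (plus strand).
Kdm5b: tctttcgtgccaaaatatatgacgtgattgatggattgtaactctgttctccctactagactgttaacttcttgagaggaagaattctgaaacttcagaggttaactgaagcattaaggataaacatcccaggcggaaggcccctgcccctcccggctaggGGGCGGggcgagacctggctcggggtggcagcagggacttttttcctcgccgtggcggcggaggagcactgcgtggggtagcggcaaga
Kmt2a: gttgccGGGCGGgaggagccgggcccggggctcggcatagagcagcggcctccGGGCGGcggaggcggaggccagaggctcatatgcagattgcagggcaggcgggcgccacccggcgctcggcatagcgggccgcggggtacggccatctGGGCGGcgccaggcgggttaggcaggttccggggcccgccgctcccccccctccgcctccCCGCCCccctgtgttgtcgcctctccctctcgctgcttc
Kdm1b: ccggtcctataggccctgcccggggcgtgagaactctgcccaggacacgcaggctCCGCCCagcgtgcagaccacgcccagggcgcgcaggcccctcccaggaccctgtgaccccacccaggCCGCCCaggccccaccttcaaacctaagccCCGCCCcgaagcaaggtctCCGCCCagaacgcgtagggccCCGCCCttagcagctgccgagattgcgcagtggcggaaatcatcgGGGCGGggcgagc

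The 250 bases before the Kdm5b start held 13 CG dinucleotides and 1 GC box, those of Kmt2a 29 CG dinucleotides and 4 GC boxes, and those of Kdm1b 22 CG dinucleotides and 6 GC boxes. None of the 3 held a CCAAT box. Over all 32851 windows of this length, the median was 6 CG dinucleotides and the upper quartile 16, which Kdm5b did not reach, 32.7% held a GC box and 33.8% held a CCAAT box. Windows were also given for Kmt2c, with 48 CG dinucleotides and 12 GC boxes, Kmt2d, with 26 and 4, Setd1a, with 25 and no GC box, and Kdm1a, with 21, no GC box and 1 CCAAT box, the only one among the 7. All 7 windows thus held more CG dinucleotides than the median window, and the gene that differed most between the stages, Kdm5b, held the fewest of the 7. No windows were given for Kmt2b, Setd1b and Cxxc1.

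In GENCODE M21 (GRCm38), the plus strand holds Setd1a (chr7:127776670-127800122), Setd1b (chr5:123142193-123168629), Cxxc1 (chr18:74216124-74221496), Kdm1b (chr13:47043499-47085279) and Kdm5b (chr1:134560171-134635285), and the minus strand Kmt2a (chr9:44803355-44881296), Kmt2b (chr7:30568858-30588726), Kmt2c (chr5:25271798-25498783), Kmt2d (chr15:98831669-98871204) and Kdm1a (chr4:136550540-136602723).

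In control FGOs, transcripts of the members spanned more than 2 orders of magnitude, with the H3K4me1/2 demethylase Kdm1b at the top. Its mean TPM of 501 ± 25.9 (SD, n = 3) lay above 98.0% of the genes whose mean reached 1 TPM. It was followed by Kmt2c (323 ± 16.3), Kmt2d (232 ± 18.2), Setd1a (148 ± 2.13), Kmt2b (117 ± 8.80), Kdm1a (92.2 ± 10.7), Setd1b (78.6 ± 4.79) and Cxxc1 (57.2 ± 8.46; SD, n = 3 for each). Of these neighbours, Kdm1a and Setd1b were the only pair whose ranges overlapped. Kdm5b, at 2.201 ± 0.0273 TPM, and Kmt2a, at 1.10 ± 0.330 TPM, stood far below (SD, n = 3). Kmt2b, the enzyme of the broad oocyte H3K4me3 domains, was therefore the 5th of the 10 members and supplied 12.97% ± 0.620 (SD, n = 3) of the summed TPM of the 6 methyltransferases, against 35.9% ± 1.68 for Kmt2c.

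In the 7 control embryos the order was different at its upper end: Kmt2c (537 ± 130.4), Kdm5b (467 ± 157) and Kmt2d (445 ± 157; SD, n = 7 for each) led, with overlapping ranges. Setd1a followed at 236 ± 30.3 TPM, below Kmt2d in 7 of 7 embryos. Kdm1b was now the 7th member, at 70.6 ± 23.9 TPM (SD, n = 7), between Setd1b and Kdm1a, whose ranges overlapped with it. Kmt2a remained the lowest, at 9.44 ± 4.36 TPM (SD, n = 7), with a range that overlapped that of Cxxc1.

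**Figure D1:**
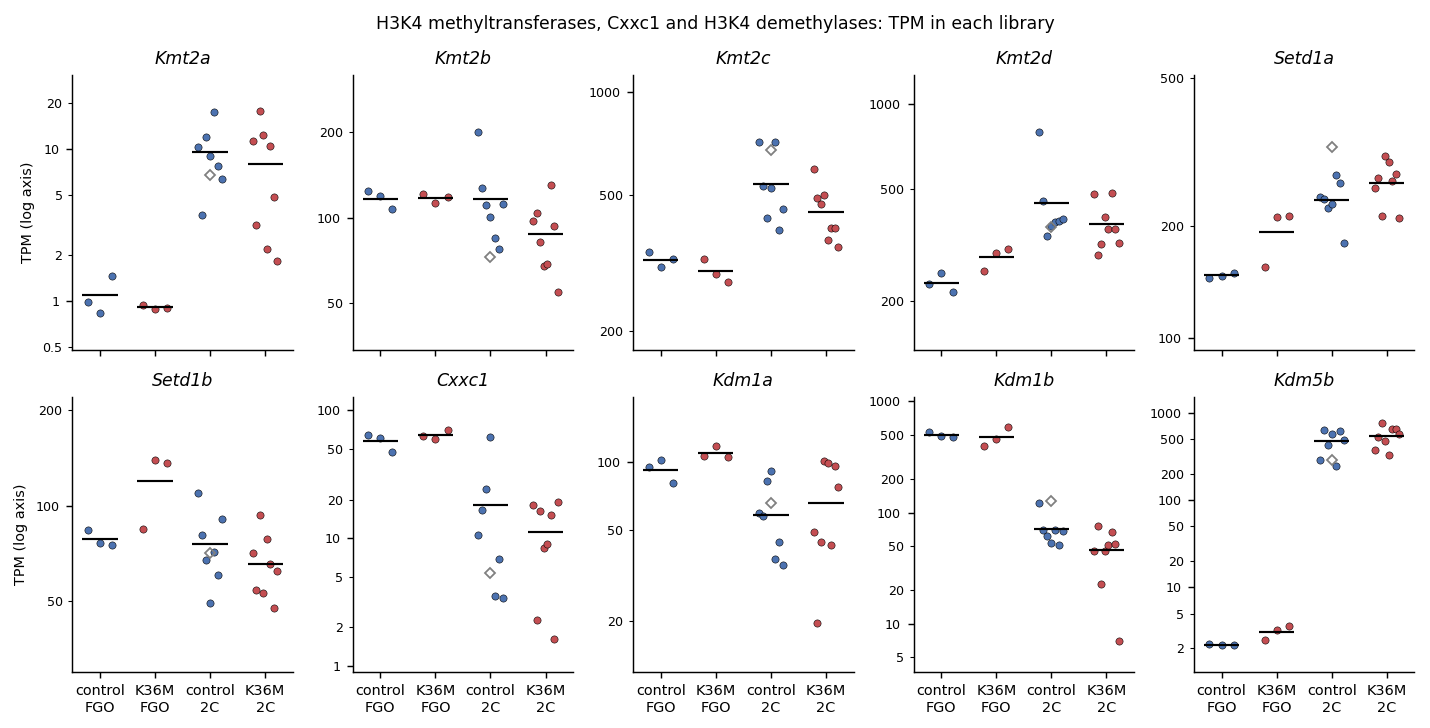
TPM of the 10 members in every library on log axes, by group (FGOs, 3 control and 3 K36M libraries; two-cell embryos (2C), 7 from control and 8 from K36M oocytes). Points are libraries, bars are group means and the open diamond is control embryo 4, which entered no mean. Kdm5b lies at 2.17 to 3.59 TPM in FGOs and at 242 to 757 TPM in embryos, and Kdm1b at 399.8 to 589 TPM in FGOs and at 6.93 to 122 TPM in embryos.

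The question that the stage comparison addresses is which of these enzymes' transcripts oocytes store and which are present in the embryo after zygotic genome activation. In the control comparison 5 of the 10 members were higher in embryos (Kdm5b, Kmt2a, Kmt2d, Kmt2c and Setd1a) and 2 were lower (Kdm1b and Cxxc1). Over all 16914 genes tested, 15.0% were called higher and 15.5% lower. The median difference of the members was 0.30 on the log2 scale, beside 0.08 for all genes tested. In the K36M comparison, which shares no library with the control one, 1 member was higher (Kdm5b) and 2 were lower (Kdm1b and Cxxc1), where 9.86% of 16677 genes were called higher and 15.4% lower. The median difference was -0.05 for the members and -0.16 for all genes. With any 1 of the 3 control FGO libraries left out, only Kdm5b and Kdm1b passed in the control comparison (limma). Kmt2a, Kmt2c, Kmt2d, Setd1a and Cxxc1 did not (adjusted p from 0.0578 to 0.159). Their differences were then 2.12 to 2.34, 0.66 to 0.73, 0.83 to 0.94, 0.65 to 0.67 and -2.32 to -2.11. The fit gave FGO pools and single embryos 1 common spread per gene, and its part in the lost calls was not tested. In the K36M comparison Cxxc1 likewise did not pass without any 1 of the 3 K36M FGO libraries (adjusted p from 0.0699 to 0.0826). The ranges of 6 members did not overlap between the control stages (5 higher and 1 lower in embryos, where 14.5% and 18.2% of all genes did so), and those of 6 members between the K36M stages (3 higher and 3 lower, where 9.41% and 16.9% did so).

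Among the demethylases, Kdm5b showed the largest difference of all members. It removes H3K4me3 and was at 2.23, 2.203 and 2.17 TPM in the control FGOs. In control embryos it ranged from 242 to 635 TPM with a median of 484, so that the lowest embryo was above every FGO library by about 2 orders of magnitude. The mean was 212-fold higher, and the difference of 7.11 ± 0.35 (SE) on the log2 scale was the 33rd highest of the 16914 genes tested (limma, adjusted p = 3.4e-08). K36M FGOs held 2.50, 3.21 and 3.59 TPM, and K36M oocyte-derived embryos 325 to 757 TPM with a median of 542. There too the groups were far apart, and the difference was 6.99 ± 0.31 (adjusted p = 6.0e-09), the 44th highest of 16677 genes.

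Kdm1b moved the other way. Transcripts of this H3K4me1/2 demethylase, which acts in oocytes, were at 529.9, 492 and 480.4 TPM in control FGOs and at 51.1 to 122 TPM with a median of 67.9 in control embryos. The highest embryo was below the lowest FGO library, the mean was 7.09-fold higher in FGOs, and the difference was -2.86 ± 0.29 (SE; limma, adjusted p = 1.3e-05). In the K36M groups, FGOs held 399.8, 459 and 589 TPM and embryos 6.93 to 75.05 TPM with a median of 48.3. The K36M groups did not overlap either, and the difference was -3.60 ± 0.59 (adjusted p = 0.00054). In GENCODE M21, exons of Kdm1b share 505 bases with Dek on the opposite strand, and the strand setting of the authors' counting is not given in the sources used here. Dek was at 325 ± 20.9 TPM (SD, n = 3) in control FGOs and 927 ± 306 TPM (SD, n = 7) in control embryos, opposite in direction to Kdm1b. Both demethylase calls, Kdm5b and Kdm1b, held in both comparisons under every alternative run and without any 1 library.

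Kdm1a, the paralog of Kdm1b with the same chemistry, did not pass in either stage comparison. It was at 94.7, 101 and 80.4 TPM in control FGOs and 35.3 to 90.6 TPM with a median of 58.0 in control embryos, with overlapping ranges and a difference of -0.73 ± 0.36 (limma, adjusted p = 0.150). K36M FGOs held 106, 117 and 105 TPM and K36M oocyte-derived embryos 19.7 to 100.3 TPM, and the difference was -0.89 ± 0.49 (adjusted p = 0.213), which passed with array weights (-0.86, adjusted p = 0.0251). These K36M groups did not overlap, as was the case for 26.3% of the genes tested in this comparison, and for 32.7% in the control one. Within the KDM1 pair, Kdm1b supplied 84.5% ± 1.42 of the summed TPM in control FGOs (SD, n = 3) and 55.1% ± 11.8 in control embryos (SD, n = 7), with 37.1 to 67.3% in single embryos. The shares were 81.2% ± 3.23 (SD, n = 3) and 41.3% ± 21.4 (SD, n = 8) in K36M FGOs and embryos, and here 1 embryo reached 79.2%, inside the FGO range of 79.0 to 84.9%. Within Kdm5a, Kdm5b and Kdm5c, the share of Kdm5b was 6.00 to 6.44% in control FGOs and 74.0 to 87.9% in control embryos, and 5.95 to 6.54% and 72.9 to 90.2% in the K36M groups. Added together, Kdm1a, Kdm1b and Kdm5b reached 563 to 627 TPM in control FGOs and 349 to 762 TPM in control embryos, and 508 to 697 and 462 to 824 TPM in the K36M groups, with overlap in both genotypes.

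**Figure D2:**
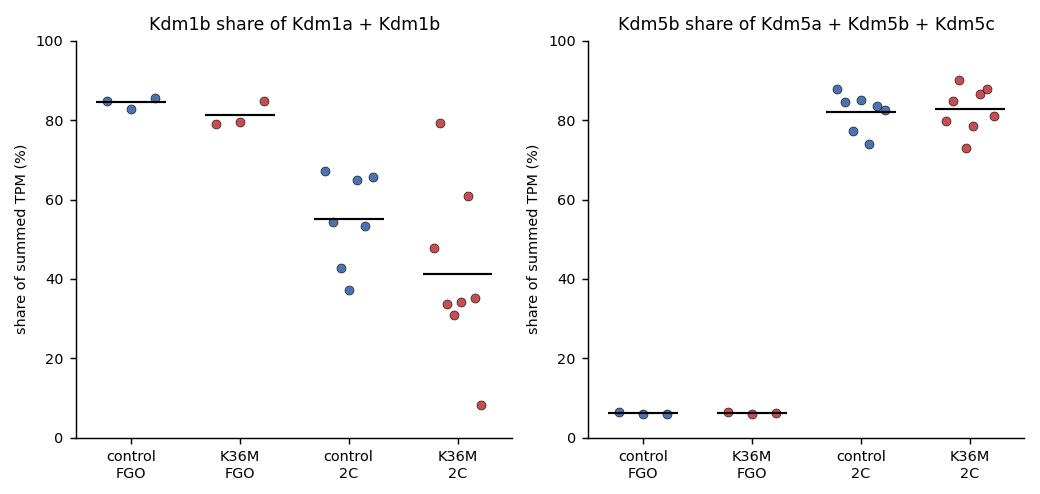
Share of Kdm1b in the summed TPM of Kdm1a and Kdm1b (left) and of Kdm5b in that of Kdm5a, Kdm5b and Kdm5c (right), in percent, for each library (points) with the group mean (bars). Kdm1b supplies 82.9 to 85.7% of its pair in control FGOs and 37.1 to 67.3% in control embryos, and Kdm5b 6.00 to 6.44% and 74.0 to 87.9% of its group.

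Of the 6 methyltransferases, 4 were called higher in control embryos, beside 15.0% of all genes. Without the mean-variance trend, 3 of these calls were lost (adjusted p = 0.154 for Kmt2c, 0.0954 for Kmt2d and 0.138 for Setd1a). Kmt2a (MLL1), which acts at developmental promoters such as those of Hox genes, had the largest difference from the lowest level. It was at 0.990, 0.843 and 1.47 TPM in control FGOs and at 3.70 to 17.3 TPM with a median of 9.001 in control embryos, so the groups did not overlap (difference 2.21 ± 0.64, SE; limma, adjusted p = 0.0189). Even in embryos, however, it supplied only 0.676% ± 0.301 (SD, n = 7) of the summed methyltransferase TPM. In K36M FGOs it was at 0.951, 0.897 and 0.902 TPM and in K36M oocyte-derived embryos at 1.83 to 17.5 TPM, again without overlap, but with a wider spread between embryos and a difference that did not pass as fitted (1.91 ± 0.79, adjusted p = 0.0925). It passed in 4 of 9 alternatives: quantile normalization (2.64, adjusted p = 0.0120), no trend (0.0453), array weights (0.0026) and the fit over all 4 groups (0.0346).

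Kmt2c and Kmt2d (MLL3 and MLL4), which monomethylate H3K4 at enhancers, were the most abundant methyltransferases in both stages. Kmt2c was at 339, 307 and 324 TPM in control FGOs and at 395 to 716 TPM with a median of 525 in control embryos, all embryos above all FGO libraries (0.70 ± 0.22, SE; limma, adjusted p = 0.0297). Kmt2d was at 229.8, 252 and 216 TPM and at 341 to 794 TPM with a median of 386, likewise without overlap (0.88 ± 0.25, adjusted p = 0.0190). The highest value was that of control embryo 1, and without this embryo the difference was 0.73. In the K36M groups Kmt2c did not overlap either, with 324, 294 and 277 TPM in FGOs and 351 to 594 TPM in embryos, and its difference of 0.56 ± 0.20 did not pass as fitted (adjusted p = 0.0525). This value lies close to the threshold, and Kmt2c passed in 5 of 9 alternatives, with an adjusted p from 0.0033 to 0.0498, and without K36M oocyte-derived embryo 5 (0.0391) or 8 (0.0331). Kmt2d overlapped there, with 256, 295 and 305 TPM in FGOs and 292 to 484 TPM in embryos (0.38 ± 0.21, adjusted p = 0.213). The interaction described below did not pass for Kmt2d, which does not show that its stage difference was the same in both genotypes.

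The paralogs Setd1a and Setd1b, the main H3K4me3 enzymes at active promoters, differed in what the stage comparison showed. Setd1a was at 146, 147 and 150.0 TPM in control FGOs and at 181 to 275 TPM with a median of 237 in control embryos, without overlap (0.66 ± 0.21, SE; limma, adjusted p = 0.0294). In the K36M groups it was at 155, 211 and 213 TPM and 211 to 310.1 TPM, which overlapped (0.44 ± 0.22, adjusted p = 0.172). Setd1b was at 84.0, 76.4 and 75.2 TPM in control FGOs and at 49.3 to 110.0 TPM in control embryos, spread on both sides of the FGO values (-0.09 ± 0.31, adjusted p = 0.843, 95% confidence interval -0.76 to 0.58). In the K36M groups Setd1b was at 84.7, 139 and 136 TPM in FGOs and 47.6 to 93.3 TPM in embryos, with a difference of -0.85 ± 0.35 that did not pass as fitted (adjusted p = 0.0902) and passed in 4 of 9 alternatives, with an adjusted p from 0.0161 to 0.0499. Here the first FGO library lay among the embryos and the other two above them all. GENCODE M21 also places a protein-coding gene on the same strand, Gm49388, over 3523 exon bases of Setd1a, and it has no row in the table.

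Kmt2b (MLL2), the main H3K4me3 enzyme of growing oocytes, did not pass in either comparison. It was at 124, 119 and 107 TPM in control FGOs and at 77.8 to 199.99 TPM with a median of 111 in control embryos, and the difference of -0.07 ± 0.31 (SE; limma, adjusted p = 0.884) had a 95% confidence interval of -0.73 to 0.59. In the K36M groups it was at 122, 113 and 119 TPM and 54.9 to 131 TPM (-0.47 ± 0.34, adjusted p = 0.344). Ranges overlapped in both comparisons. Summed over the 6 methyltransferases, TPM was 873 to 924 in control FGOs and 1184 to 2069.5 in control embryos, without overlap, and 943 to 1054 and 1003 to 1507 in the K36M groups, with overlap.

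Cxxc1 (CFP1), the CpG-binding subunit that brings SETD1 complexes to CpG islands, was called lower in embryos in both genotypes. It was at 63.5, 60.5 and 47.6 TPM in control FGOs and at 3.42 to 62.0 TPM with a median of 10.6 in control embryos. Control embryo 5 alone was inside the FGO range, and the other 6 were at 24.4 TPM or less. The difference was -2.19 ± 0.77 (SE; limma, adjusted p = 0.0467), and the call held without control embryo 5 (-2.58, adjusted p = 0.0122). Without control embryo 1, 2, 6, 7 or 8 it did not pass (adjusted p from 0.0536 to 0.0673), nor with a pseudocount of 0.1 (adjusted p = 0.0587), with every gene above 0 (0.0677) or without the trend (0.0566). In K36M FGOs it was at 63.2, 59.5 and 70.6 TPM and in K36M oocyte-derived embryos at 1.63 to 19.1 TPM, without overlap (-2.73 ± 0.74, adjusted p = 0.0152).

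**Figure D3:**
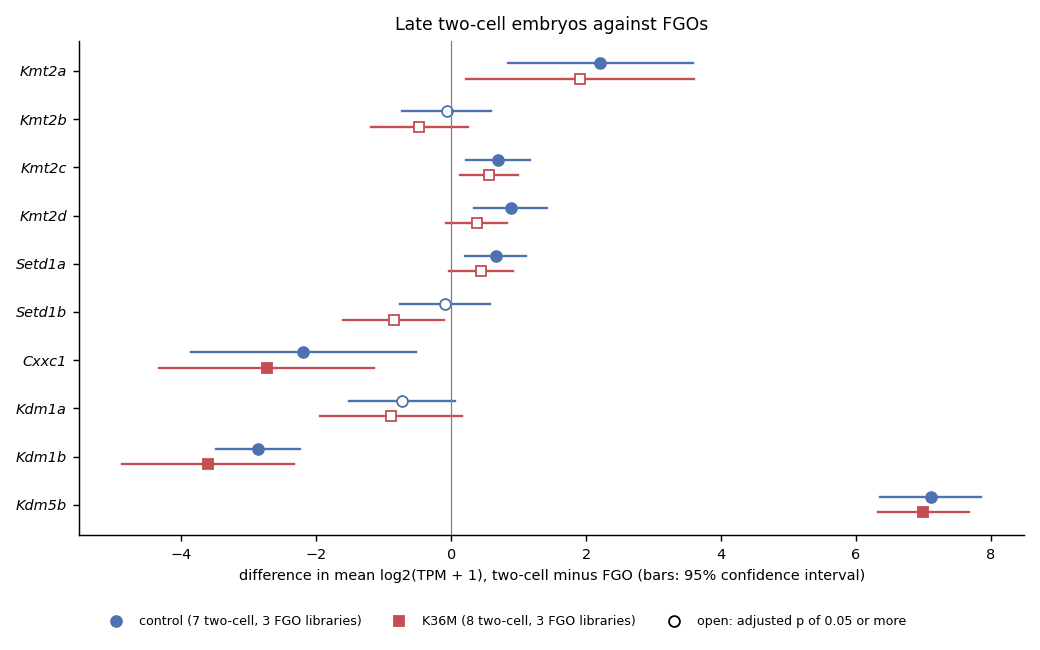
Difference in mean log2(TPM + 1) between late two-cell embryos and FGOs for each member, in control (circles) and K36M (squares) libraries, with 95% confidence intervals. Filled symbols passed an adjusted p of 0.05. Kdm5b lies near 7 and Kdm1b between -3.60 and -2.86 in both genotypes, whereas Kmt2b, Setd1b and Kdm1a are open in both.

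TPM is relative to the sum of each library, and the scaling of the libraries moved some of the differences and calls. Median-of-ratios scaling moved the median of all genes by -0.17 in the control comparison, and 4 of the 7 member calls passed: Kdm5b, Kmt2a, Kdm1b and Cxxc1. Relative to the median of all genes, Kmt2c was then higher by 0.57, Kmt2d by 0.75 and Setd1a by 0.53, where they had been 0.62, 0.80 and 0.58 before this scaling. Quantile normalization ended the control calls of Kmt2c (adjusted p = 0.0518) and Setd1a (0.0620). Quantile normalization moved the median of all genes by 0.33 in the K36M comparison, and there the difference of Kmt2c relative to that median was 0.23 in place of 0.72. Scaling also added calls there, that of Kmt2a by quantile normalization and that of Setd1b by median-of-ratios scaling (-1.01, adjusted p = 0.0407).

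The embryos varied among themselves far more than the pooled FGO libraries. Between control FGO libraries the SD of log2(TPM + 1) had a median of 0.09 over 4283 genes whose mean reached 50 TPM, and between control embryos of 0.64 over 4538 genes. Setd1a was among the steady members, with SDs of 0.19 in control and 0.20 in K36M oocyte-derived embryos. Setd1b, Kmt2c (0.34 and 0.26) and Kmt2d (0.41 and 0.27) were also among them. Cxxc1 varied most among the members, with SDs of 1.39 and 1.15. Its means of 18.2 and 11.2 TPM in these embryos lay below 50 TPM. Over all genes whose mean reached 1 TPM, the median SD was 1.26 between control and 1.45 between K36M oocyte-derived embryos. Kdm1b varied with an SD of 0.41 between control and 1.06 between K36M oocyte-derived embryos, of which embryo 8 was lowest at 6.93 TPM and embryo 3 next at 22.6 TPM. Embryo 8 had 11178 genes with a TPM above 0 and embryo 3 had 14201, and the part of this number in the spreads was not tested.

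For Kdm5b, Kdm1b and Kmt2a, the 3 members with the largest difference between the control stages as fitted, the genes with the most similar profile were sought by Pearson correlation of log2(TPM + 1) over the 21 libraries among 17358 genes. The libraries share their stage, so these values mainly describe the contrast between FGOs and embryos. For Kdm5b they were Trim43a (r = 0.996), Slc34a2 (r = 0.996) and Btbd18 (r = 0.995), which were at 0.0846, 1.26 and 0.170 TPM in control FGOs and at 276, 771 and 484 TPM in control embryos. For Kdm1b they were Lsm14b (r = 0.943), Ddx19a (r = 0.942) and Nlrp4a (r = 0.942), all high in control FGOs at 1521, 691 and 776 TPM and at 197, 167 and 78.0 TPM in control embryos. For Kmt2a they were Plk2 (r = 0.934), Rgs16 (r = 0.927) and Gm6803 (r = 0.923), with 3.12, 0.0269 and 0 TPM in control FGOs and 127, 75.9 and 102 TPM in control embryos.

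The members were then set beside 52 other genes of H3K4 methylation, in 6 lists. In the control comparison 14 of the 50 tested were higher in embryos and 8 lower, and in the K36M comparison 11 of 51 were higher and 7 lower. Read as shares of the genes tested, 15.0% were called higher and 15.5% lower over all genes in the control comparison, and 9.86% and 15.4% in the K36M one. The lower counts were close to these shares, and the short lists below are descriptions against the same background. Among the 4 core subunits shared by the methyltransferases (Wdr5, Ash2l, Rbbp5 and Dpy30), Rbbp5 alone was called, lower in embryos in both comparisons (142 to 19.4 TPM in control, -3.17 ± 0.72 on the log2 scale, adjusted p = 0.0050; 173 to 13.98 TPM in K36M, -4.39 ± 1.03, adjusted p = 0.0063). Of 10 subunits found in only some of these complexes, 2 were higher and 2 lower in control embryos. Ncoa6, a subunit of the KMT2C and KMT2D complexes, was higher (1.31 in control and 1.32 in K36M), whereas Kdm6a, the H3K27 demethylase of the same complexes, was lower (-1.31 and -1.71). Wdr82, the subunit of the SETD1 complexes that binds RNA polymerase II, was also lower (-0.94 and -1.60), and Hcfc1 was higher in control embryos (1.36) and did not pass in K36M oocyte-derived ones (0.94).

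Of 5 further methyltransferases tested, Prdm9, the meiotic H3K4 methyltransferase, was higher in embryos in both comparisons (1.16 to 62.3 TPM in control, 4.67 ± 0.60, adjusted p = 9.4e-05; 4.28 in K36M), and Smyd2 was lower (-3.17 and -3.31). Setd7 was higher (2.55) and Smyd3 lower (-1.91) in the control comparison, and neither passed in the K36M one (1.26 and -1.64). Of 4 further demethylases, Kdm5a, the paralog of Kdm5b, was also higher (6.86 to 67.3 TPM in control, 2.96 ± 0.53, adjusted p = 0.0011; 9.11 to 83.2 TPM in K36M, 3.04 ± 0.39), and so did Riox1 (4.89 and 4.85). Kdm5c did not pass in either comparison (0.18 and -0.79).

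Among 11 partners of the KDM1 enzymes, 4 were higher and 1 lower in control embryos, and 3 and 1 in K36M oocyte-derived embryos. The corepressor subunit Rcor2 (7.10 to 214 TPM in control, 4.65 ± 0.45; 4.37 in K36M) and the deacetylase Hdac1 (16.7 to 198 TPM, 3.38 ± 0.40; 4.18 in K36M) were higher. Rcor1 was higher (1.43 and 1.47) and Gse1 lower (-1.16 and -2.24). Of 16 genes for H3K4 readers tested in the control comparison, 4 were higher and 2 lower, and the numbers were the same among 17 in the K36M comparison. Chd1, a remodeler that binds H3K4me3, was higher (33.5 to 284 TPM in control, 3.03 ± 0.30; 3.06 in K36M), as was Dido1 (2.21 and 2.00), and Sgf29, the H3K4me3 reader of the SAGA complex, was lower (-3.92 and -5.14). Ing1 was higher (1.26 and 1.42) and Spin1 lower (-0.89 and -1.44) in both.

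**Figure D4:**
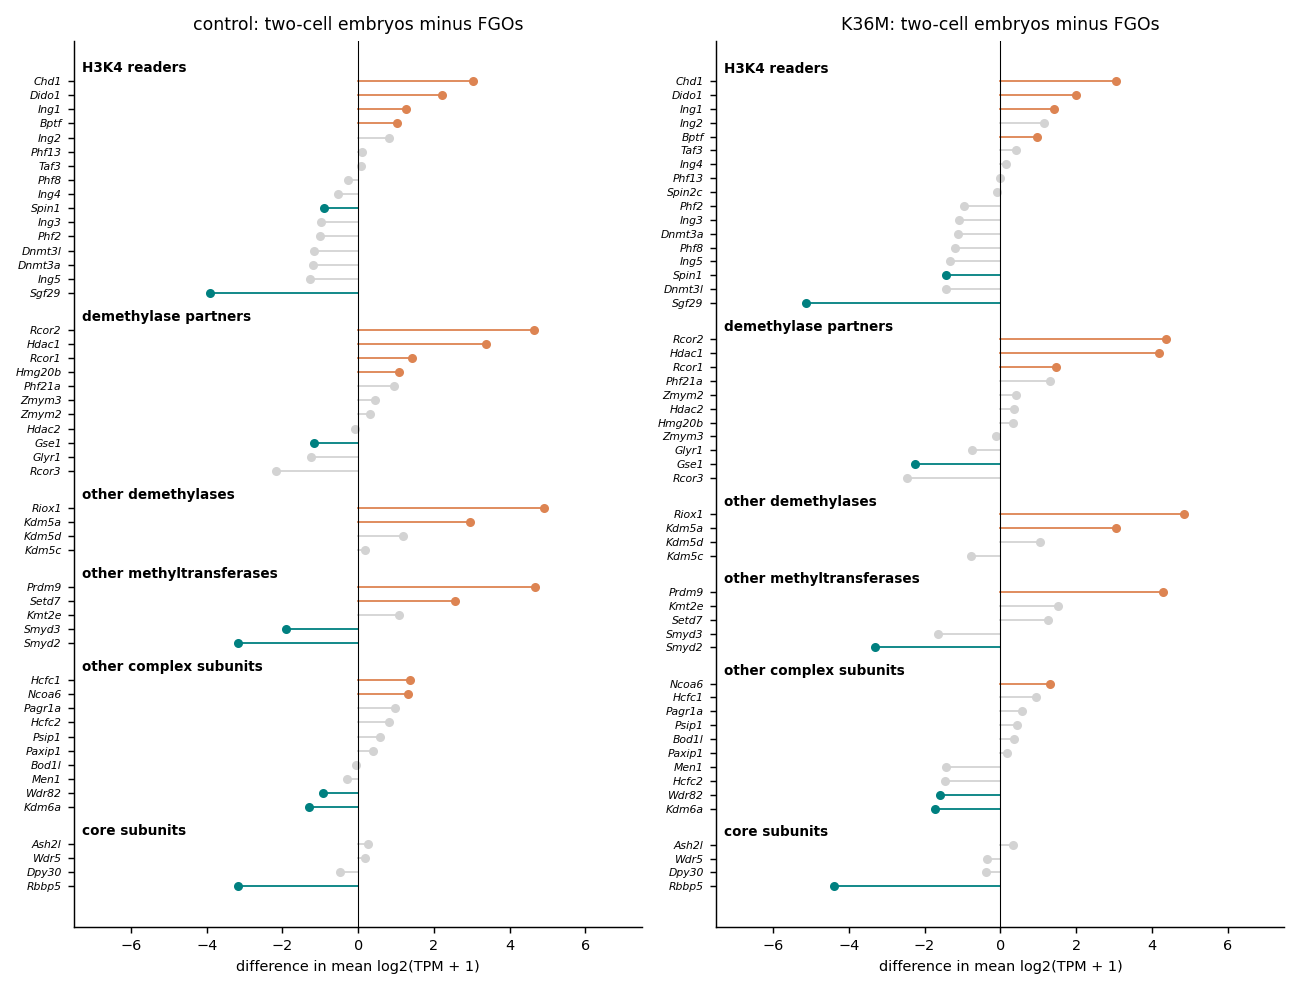
Difference in mean log2(TPM + 1) between two-cell embryos and FGOs for the other H3K4 methylation genes tested, by list, in control (left, 50 genes) and K36M (right, 51 genes) libraries. Orange marks genes called higher in embryos (14 and 11), teal genes called lower (8 and 7) and grey genes that did not pass. Rcor2, Hdac1, Riox1, Kdm5a, Prdm9 and Chd1 lie to the right and Rbbp5 and Sgf29 to the left in both.

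The comparison of K36M with control FGOs asks whether these genes' transcripts change when oocytes express H3.3K36M. None of the 10 members passed, where 0.00726% of the 13775 genes tested (1 gene, lower in K36M) did. The study's own edgeR test on counts called more genes between K36M and control FGOs, and its list was not set beside the members here. At an unadjusted p under 0.05 there were 3 members, Kmt2d, Setd1a and Setd1b, beside 10.5% of all genes. In 5 members, Kmt2d, Setd1a, Setd1b, Kdm1a and Kdm5b, all 3 K36M libraries were above all 3 control libraries, as was the case for 7.46% of all genes. In no member were they all below, against 8.17% of all genes. The median difference of the members was 0.21 on the log2 scale, beside 0.01 for all genes. The summed oocyte markers were at 17650.4 to 17982 TPM in control and 15447 to 16979 TPM in K36M FGOs without overlap, with 8 of 8 markers reaching 1 TPM in both, and the granulosa markers at 116 to 132 and 125 to 192 TPM with overlap, and their part in the differences of the members was not tested.

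Setd1b had the largest difference. It was at 84.0, 76.4 and 75.2 TPM in control and 84.7, 139 and 136 TPM in K36M FGOs, so that K36M library 1 was just above the highest control and the other K36M libraries far above it (0.57 ± 0.18, SE; limma, adjusted p = 0.396). Setd1a showed the same pattern, at 146, 147 and 150.0 TPM in control and 155, 211 and 213 TPM in K36M FGOs (0.37 ± 0.13, adjusted p = 0.405). Kmt2d was at 229.8, 252 and 216 TPM in control and 256, 295 and 305 TPM in K36M FGOs (0.30 ± 0.10, adjusted p = 0.396). Without K36M library 1, 300 genes passed (2.17% of 13799 tested, 1.38% higher in K36M), among them Setd1b (0.80, adjusted p = 0.0205) and Setd1a (0.52, adjusted p = 0.0246), while Kmt2d did not (0.37, adjusted p = 0.0684). Over all alternatives the adjusted p ranged from 0.0205 to 0.712 for Setd1b and from 0.0246 to 0.712 for Setd1a. That fit left 2 K36M libraries, and no label gives a reason to leave library 1 out.

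The demethylases and the other members showed smaller or less even differences. Kdm1a was at 94.7, 101 and 80.4 TPM in control and 106, 117 and 105 TPM in K36M FGOs (0.25 ± 0.11, SE; limma, adjusted p = 0.485), and Kdm5b at 2.17 to 2.23 TPM and 2.50 to 3.59 TPM (0.35 ± 0.30, adjusted p = 0.684). Kdm1b, the most abundant member, was at 480.4 to 529.9 TPM in control and 399.8 to 589 TPM in K36M FGOs, with K36M libraries on both sides of the controls (-0.07 ± 0.13, 95% confidence interval -0.36 to 0.22). Kmt2b differed by 0.01 (95% confidence interval -0.20 to 0.23), and the sign of this difference turned under other settings. Kmt2a (-0.12), Kmt2c (-0.12) and Cxxc1 (0.18) overlapped between the genotypes, with adjusted p from 0.648 to 0.926. As a share of the methyltransferase TPM, Setd1b supplied 8.48 to 9.09% in control FGOs and 8.98 to 13.2% in K36M FGOs, with overlap, and Kmt2c 34.0 to 37.1% and 26.4 to 34.4%, also with overlap.

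In the 46 other H3K4 methylation genes tested in FGOs, none passed, and 5 had an unadjusted p under 0.05, named here after their values were seen: Wdr5 (0.21), Kdm5c (0.46), Phf2 (0.51), Phf8 (0.33) and Ing5 (0.30). All 5 were higher in K36M FGOs. Over all genes tested, 10.5% had an unadjusted p under 0.05, and 5 of 46 is close to that share.

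Between K36M oocyte-derived and control two-cell embryos, none of the 10 members passed, and neither did any of the 17362 genes tested (0%; 1338 genes, or 7.71%, had an unadjusted p under 0.05, and no member did). The ranges of all 10 members overlapped between the genotypes, whereas 0.115% of genes did not overlap (0.0230% higher and 0.0922% lower in the K36M group). The median difference was -0.23 for the members and -0.26 for all genes tested. Kdm1b had the largest difference, with 51.1 to 122 TPM and a median of 67.9 in 7 control embryos against 6.93 to 75.05 TPM and a median of 48.3 in 8 K36M oocyte-derived embryos. Of the 8 K36M oocyte-derived embryos, 4 were within the control range and 4 below it, and the difference of -0.81 ± 0.46 (SE) did not pass (limma, adjusted p = 0.679, 95% confidence interval -1.76 to 0.14). It was -0.48 without K36M oocyte-derived embryo 8.

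The other 9 members differed by -0.42 (Kmt2a, which was at 0.44 after quantile normalization) to 0.23 (Kdm5b) on the log2 scale. The narrowest intervals were those of Kmt2c (-0.25, 95% confidence interval -0.65 to 0.15), Setd1a (0.15, -0.28 to 0.59) and Kmt2d (-0.20, -0.65 to 0.24), and the widest that of Cxxc1 (-0.37, -1.87 to 1.14). Kdm5b, at 242 to 635 TPM in control and 325 to 757 TPM in K36M oocyte-derived embryos, had an interval of -0.27 to 0.74. Setd1a and Setd1b, which were higher without overlap in all K36M FGO libraries, overlapped in embryos (181 to 275 and 211 to 310.1 TPM for Setd1a; 49.3 to 110.0 and 47.6 to 93.3 TPM for Setd1b).

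**Figure D5:**
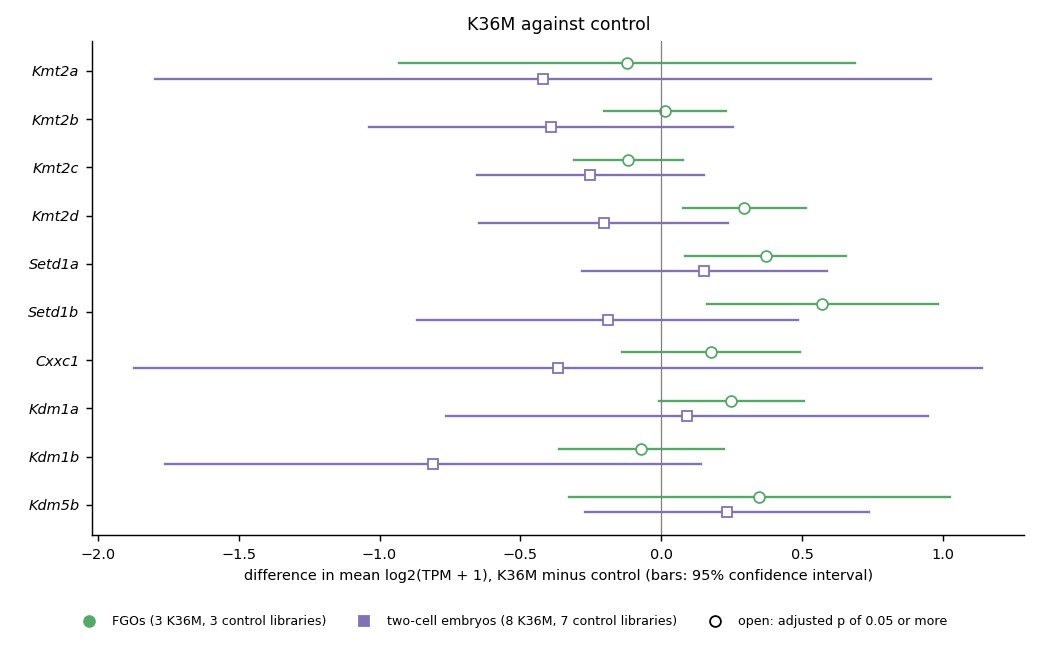
Difference in mean log2(TPM + 1) between K36M and control for each member, in FGOs (circles, 3 and 3 libraries) and two-cell embryos (squares, 8 and 7 libraries), with 95% confidence intervals. All symbols are open, as no member passed an adjusted p of 0.05. In FGOs the intervals of Kmt2d, Setd1a and Setd1b lie above 0.

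The genotype-by-stage interaction, fitted over the 21 libraries, asks whether the stage difference depended on H3.3K36M. No gene of 17358 passed (0%; 1.15% had an unadjusted p under 0.05, and no member did). The estimates were negative for all 10 members, although those of Kmt2a (quantile normalization), Kmt2c and Kdm5b (median-of-ratios scaling) turned positive under another scaling, with a median of -0.35 beside -0.27 for all genes tested. Setd1b (-0.76, 95% confidence interval -1.72 to 0.19), Kdm1b (-0.74, -2.16 to 0.68) and Cxxc1 (-0.54, -2.78 to 1.70) had the largest estimates as fitted. That of Cxxc1 was -0.16 without control embryo 5 and -0.04 under quantile normalization. For Kmt2d, called in the control and not in the K36M stage comparison, the interaction was -0.50 (-1.17 to 0.17), and for Kdm5b it was -0.12 (-1.09 to 0.86). The adjusted p was 1.00 for each member.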

How the data were processed

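RNA-seq libraries of FGOs and single two-cell embryos were made by the authors with a stranded SMART-Seq kit. Per the study's methods, the authors trimmed reads with Trim Galore!, aligned them to mm10 with HISAT2, removed those in ribosomal RNA with BEDTools and used featureCounts and edgeR. They deposited TPM values per gene. The annotation, gene lengths and strand setting are not given in the sources used here. No counts were used. Total reads per library are listed by the study but do not enter TPM, and the reads behind a gene are not known.

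Here, log2(TPM + 1) was fitted with limma 3.58.1 (R 4.3.3) with a mean-variance trend, separately for each comparison, keeping genes whose mean reached 1 TPM, with Benjamini-Hochberg adjustment over all of them and a threshold of 0.05. The stage and genotype fits were tested on simulated data with independent normal noise, and the interaction fit was not. Summaries and plots used Python 3.11.15 with pandas 2.3.3 and matplotlib 3.10.9. Members and lists were chosen with earlier results of these data known. All members are named, and of each further list at most 4 called genes per comparison, those with the largest differences. Alternatives were a pseudocount of 0.1, genes above 0 in any library or with a mean of at least 5 TPM, quantile and median-of-ratios scaling, a fit without the trend, array weights, a replicate block, 1 fit over all 4 groups, control embryo 4 added, and each library left out. Leaving out embryos was chosen after seeing the data. Gene positions came from RefSeq GRCm38.p6 and GENCODE M21. Other assays of the series were not analysed here. 1 gene of the lists is not reported here and enters no count of them.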

Additional observations from a re-analysis of the deposited data

Results flagged for a closer look

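In 20 sets of embryos (10 members in each genotype), a sample far from the others was found 4 times. The rule would flag about 1 in 20 sets by chance if values were normally spread and sets independent. TPM was used here without a log, and the same embryos entered every set of a genotype, so that rate is no fair measure. Control embryo 1 was far above the other control embryos for Kmt2b (199.99 TPM, next 127), Kmt2d (794 TPM, next 453) and Kdm1b (122 TPM, next 69.8), and control embryo 5 for Cxxc1 (62.0 TPM, next 24.4). Control embryo 1 also had the most genes above 0 of the control embryos (17329), and the part of this in the 3 values was not tested. Without control embryo 1, the stage calls of Kmt2d and Kdm1b both passed (0.73, adjusted p = 0.0048, and -3.00, adjusted p = 3.8e-06).

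Control embryo 4 was left out of all comparisons as fitted and added only as an alternative. It was above the other 7 control embryos for Setd1a (328 TPM, others at most 275) and Kdm1b (128 TPM, others at most 122). For Kmt2b it was below them (72.7 TPM), and for 7 members inside their range.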

How the results depend on the processing

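Of 1293 values compared with those reported, 1175 kept their direction and side of the threshold (or stayed within 1.5 times as counts), 40 lost and 18 gained a call, 37 moved and 23 reversed; where a value changed, the cause was not tested. Kdm5b and Kdm1b were called in both stage comparisons under all 20 alternatives each. Depth cannot be recovered from TPM.

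In FGOs, the 1 gene past the threshold became 0 with a pseudocount of 0.1, with every gene above 0, without the trend and with the replicate block, and 0 to 300 with 1 library left out (members 0 to 2, the highest without K36M library 1). Kmt2b reversed to -0.014 (quantile normalization), -0.013 (array weights), -0.047 (without control 3) and -0.010 (without K36M 1; range -0.047 to 0.060), and Kdm1b to 0.055 without K36M 1 (range -0.22 to 0.055). Between embryos, genes past the threshold were 5 without the trend, 1 with array weights and 0 to 1 with an embryo left out. Kmt2a reversed to 0.44 and Cxxc1 to 0.12 (quantile normalization), Kdm1a to -0.024 (array weights) and -0.018 (replicate block). With an embryo left out Cxxc1 ranged from -0.62 to 0.021 and Kdm1a from -0.018 to 0.31.

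Between the control stages, members past the threshold were 4 (median-of-ratios scaling), 3 (without the trend), 2 (replicate block) and 2 to 7 with 1 library left out. Genes past it were 9396 (array weights) and 3015 to 5966 with 1 left out. Kmt2b reversed to 0.27 and Setd1b to 0.10 with the block. With the block, the control calls of Kmt2a, Kmt2c, Kmt2d, Setd1a and Cxxc1 did not pass (adjusted p from 0.0517 to 0.0714), nor did Cxxc1 in K36M (0.109), where Kmt2c did (0.0498). With 1 left out, Kmt2b ranged from -0.21 to 0.018 and Setd1b from -0.19 to 0.0044. Between the K36M stages, members past it were 5 (every gene above 0), 7 (array weights), 6 (fit over all groups) and 2 to 4 with 1 left out, and genes 8212 (array weights), 2385 (replicate block) and 2342 to 4439. In the interaction, genes were 13 (every gene above 0), 1 (without the trend), 3 (array weights) and 0 to 3 with 1 left out. Kmt2a reversed to 0.46 (quantile normalization) and 0.0045 (array weights), Kmt2c to 0.017 and Kdm5b to 0.018 (median-of-ratios scaling), and Kdm1a ranged from -0.27 to 0.060.

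Replicate numbers are shared between groups, but deviations of same-numbered libraries correlated by only 0.015 to 0.101 in FGOs and -0.101 to 0.097 in embryos, so the numbers were not taken as pairs. For FGOs, Kmt2a and Kdm5b fell below the filter of 5 TPM, and Kmt2a also below 1 TPM without control 3.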
